A study of Mus musculus with 18 samples.

Results

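Glycolysis and the response to low oxygen were followed through 39 genes in 18 mammary tumors of mice, out of 55450 gene IDs measured. The genes were taken by symbol and by no cut on a measured value, but with earlier results of these data known. They fall into 23 members of the glucose pathway (glycolysis members) and 16 members of oxygen sensing and the hypoxia response (hypoxia members). The symbol Aldoa stands on a second gene ID with few reads, which was not used, so 40 gene IDs carry a member symbol. The labels name each tumor apart, but not the mouse it came from, so p-values measure the spread between these tumors. Every genotype label holds MMTV-Cre(+), a Cre recombinase transgene under a viral promoter active in mammary epithelium, and Pikca(H1047R, het), 1 activated allele of the phosphoinositide 3-kinase gene in the labels' spelling. The tumors differ in the label of Cbfb, a partner subunit of the RUNX transcription factors: 14 are Cbfb(het), 1 is Cbfb(homo) and 3 are Cbfb(wt). No tumor was treated. The labels do not say what the Cbfb allele lacks, and they give neither age nor batch.

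Glycolysis turns glucose into pyruvate in the cytosol, and many of its steps can be run by more than 1 isozyme, the forms of an enzyme made from separate genes. When oxygen is low, the prolyl hydroxylases Egln1 and Egln3 no longer mark the HIF alpha subunits for destruction, and the HIF dimer raises genes for glucose uptake, glycolysis, lactate export, pH control and blood vessel growth. Activated PI3K signalling is itself known to favour glucose uptake and glycolysis, and all 18 tumors carry it.

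The members were read against the level of other genes and against the Cbfb label. The level of Vegfa, the vessel growth factor and a classical HIF target, went with higher Ero1l, Slc16a3, Hk2, Slc2a1 and 14 other members, 18 of 38, while 4.24% of all genes passed the same test, 3.14% upward. Vegfa was taken after it was seen to call more members than Egln3. Without 2 nearly identical libraries 4 members passed, while 0.137% of all genes did. With Epcam, the epithelial adhesion molecule, 12 of 39 members changed, a share no larger than the 38.8% of all genes. Where Epcam was low, neuron-type enolase Eno2, the collagen hydroxylases P4ha1 and P4ha2 and the secreted hormone Stc1 were higher, and aldolase C and lactate dehydrogenase B were lower. No member passed the test between Cbfb(het) and Cbfb(wt) tumors.

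The promoters of 6 members that carry these results are shown for the letters that HIF is known to bind. These are the 4 glycolysis or hypoxia members with the smallest p on Vegfa that have a window, the member with the steepest slope on Vegfa among those that passed (Eno2), and lactate dehydrogenase B, which had a negative slope. The sequences are RefSeq windows of build GRCm38.p6, 250 bases before to 50 bases after the annotated start, written 5′ to 3′ on the strand of the gene. Capitals mark ACGTG or its reverse complement CACGT. The windows are chr14:45318523-45318822 on the minus strand (Ero1l, listed by RefSeq as Ero1a), chr11:120948817-120949116 on the plus strand (Slc16a3) and chr6:82774405-82774704 on the minus strand (Hk2). The others are chr19:41911621-41911920 on the plus strand (Pgam1), chr6:124769624-124769923 on the minus strand (Eno2) and chr6:142507908-142508207 on the minus strand (Ldhb).
Ero1l: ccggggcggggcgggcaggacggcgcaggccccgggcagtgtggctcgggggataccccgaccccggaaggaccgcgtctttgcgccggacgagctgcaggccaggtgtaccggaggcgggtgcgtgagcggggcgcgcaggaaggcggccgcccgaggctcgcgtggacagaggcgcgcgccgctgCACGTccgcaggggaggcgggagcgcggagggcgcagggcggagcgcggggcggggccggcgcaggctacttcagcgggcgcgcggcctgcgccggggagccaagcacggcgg
Slc16a3: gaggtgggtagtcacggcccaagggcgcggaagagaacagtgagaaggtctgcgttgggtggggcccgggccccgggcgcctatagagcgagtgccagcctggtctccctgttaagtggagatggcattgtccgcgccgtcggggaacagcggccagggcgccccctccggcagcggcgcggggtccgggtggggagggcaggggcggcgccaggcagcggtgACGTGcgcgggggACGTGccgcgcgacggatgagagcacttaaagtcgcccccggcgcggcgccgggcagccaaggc
Hk2: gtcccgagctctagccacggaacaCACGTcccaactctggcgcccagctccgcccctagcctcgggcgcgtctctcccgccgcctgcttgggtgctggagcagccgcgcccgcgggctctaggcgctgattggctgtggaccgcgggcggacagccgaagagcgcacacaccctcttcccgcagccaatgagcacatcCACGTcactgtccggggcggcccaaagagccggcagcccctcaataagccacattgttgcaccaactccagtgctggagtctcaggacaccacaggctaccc
Pgam1: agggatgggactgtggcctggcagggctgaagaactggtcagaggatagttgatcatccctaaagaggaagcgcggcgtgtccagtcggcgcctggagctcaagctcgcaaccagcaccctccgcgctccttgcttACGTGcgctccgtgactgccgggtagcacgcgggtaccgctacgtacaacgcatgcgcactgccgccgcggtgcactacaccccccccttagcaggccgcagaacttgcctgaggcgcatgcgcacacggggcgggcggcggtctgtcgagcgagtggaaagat
Eno2: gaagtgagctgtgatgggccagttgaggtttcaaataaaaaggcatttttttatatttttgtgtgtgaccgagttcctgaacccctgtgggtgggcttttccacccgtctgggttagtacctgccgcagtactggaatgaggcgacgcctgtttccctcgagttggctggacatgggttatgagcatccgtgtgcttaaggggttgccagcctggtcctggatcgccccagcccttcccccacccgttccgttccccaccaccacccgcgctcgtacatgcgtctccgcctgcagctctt
Ldhb: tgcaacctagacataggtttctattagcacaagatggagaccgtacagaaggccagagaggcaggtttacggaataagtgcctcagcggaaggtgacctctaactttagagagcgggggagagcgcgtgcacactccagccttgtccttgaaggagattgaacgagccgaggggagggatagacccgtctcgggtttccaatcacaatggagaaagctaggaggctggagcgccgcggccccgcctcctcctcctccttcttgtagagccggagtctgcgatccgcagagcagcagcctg

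ACGTG stood 2 times each in the windows of Slc16a3 and Hk2, 1 time each in those of Ero1l and Pgam1, and 0 times in those of Eno2 and Ldhb. GCGTG, which is not marked by capitals, stood 2 times each in those of Ero1l and Pgam1 and 1 time in that of Ldhb. It stood 0 times in those of Slc16a3, Hk2 and Eno2. A window was found for 35 of the 39 members, and 19 of these 35 (54.3%) held ACGTG on either strand, against 6447 of all 32851 windows in the table (19.6%). With GCGTG allowed too, 27 of 35 members (77.1%) and 43.8% of all windows held at least 1 of the 2 words, which can share a letter where they adjoin. CACGTG, which contains ACGTG and is the known E-box of MYC and other factors, stood in 3 of 35 member windows (8.57%) and in 7.15% of all windows. The members were listed as genes of glycolysis and the hypoxia response, and the windows were not matched for base content. The shares are therefore a description and no test. A match is a description of letters and not a binding site.

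**Figure D1:**
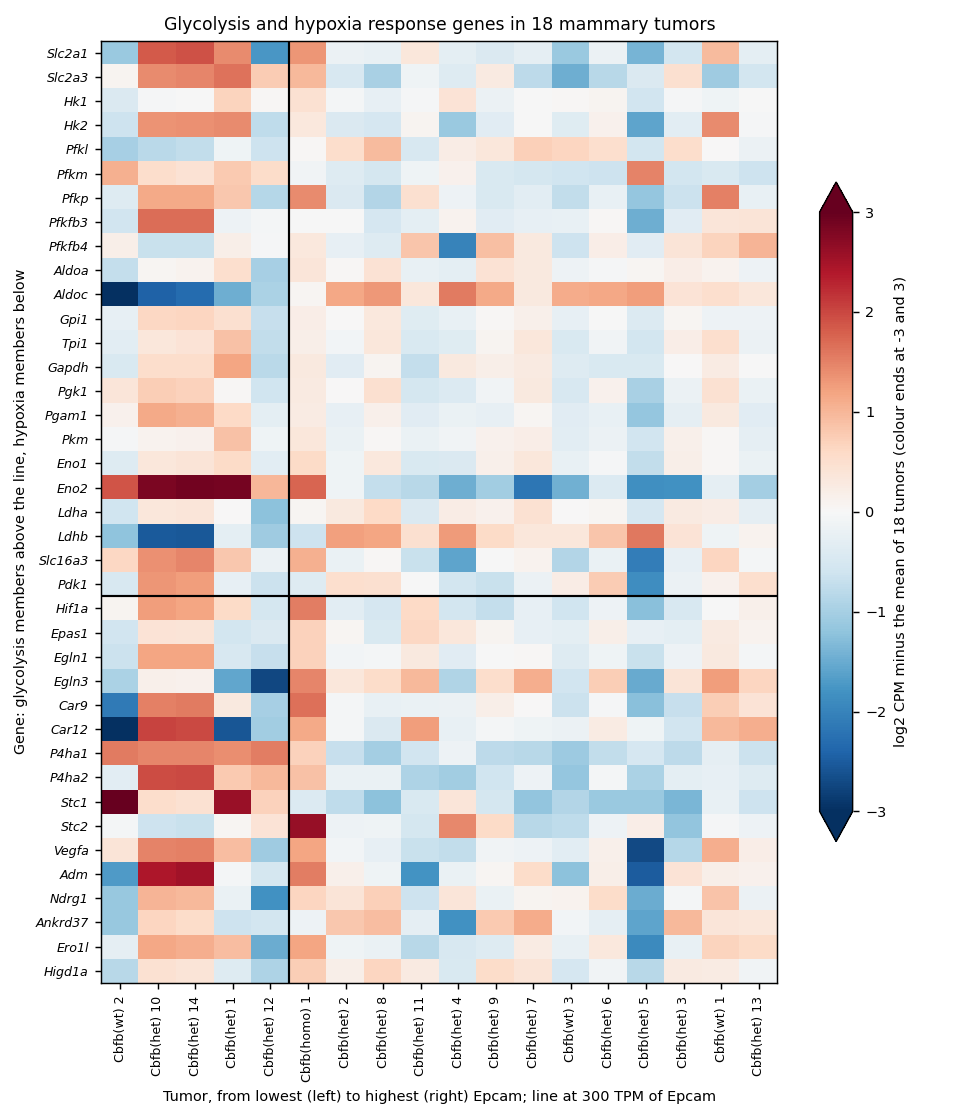
Level of the 39 members (rows) in 18 tumors (columns, from the lowest Epcam at the left to the highest at the right), as log2 CPM minus the mean of the gene over the 18 tumors, red for higher and blue for lower. The vertical line separates the 5 tumors under 300 TPM of Epcam from the 13 over it. Eno2, P4ha1 and Stc1 are red left of the line and Aldoc is blue there, while Cbfb(het) 5, at the right, is blue in most rows.

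The tumors held 33210239 to 40974166 rounded expected counts each, where an expected count is the estimate by RSEM of the reads of a gene. Levels are given in TPM, transcripts scaled to a fixed total, which are per length and can be compared between genes within a tumor, or in log2 CPM, the log2 of counts scaled to the library size, for tests between tumors. The libraries Cbfb(het) 10 and Cbfb(het) 14 were nearly alike (correlation of log2 CPM 0.998). The chi-square per degree of freedom between their counts was 4.18, above the 1 of pure sampling noise but far under the at least 85.9 of every other pair. Whether they are 2 tumors or parts of 1 tumor was not tested. They were kept as 2, as labelled, so n may be 17 in place of 18, and results that rest on them are also given without 1 or both. Epcam ran through 5.60, 26.4, 27.2, 75.1 and 133 TPM in Cbfb(wt) 2 and Cbfb(het) 10, 14, 1 and 12, and through 331 to 666 TPM in the other 13 tumors. These are called low-Epcam and high-Epcam tumors here, a split at 300 TPM chosen after the values were seen, and values of low-Epcam tumors are listed in that order. The low-Epcam tumors are 4 Cbfb(het) and 1 Cbfb(wt), and the high-Epcam tumors are 10 Cbfb(het), 1 Cbfb(homo) and 2 Cbfb(wt). TPM and log2 CPM can order the tumors differently, so ranges in TPM need not be those behind a test. Cbfb(het) 8, for example, stood at 407 TPM of Epcam but had the highest Epcam of all tumors in log2 CPM (9.51).

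Markers of other cells moved with Epcam. Summed over 10 epithelial markers, the level was 128 to 1130 TPM in low-Epcam tumors and 2612 to 6214 TPM in high-Epcam tumors, with no marker at 0 in any tumor. The sum of 8 fibroblast markers was 3265 to 20891 TPM in low-Epcam tumors and 121 to 2128 TPM in high-Epcam tumors, again with none at 0. The sum of 8 endothelial markers was 207 to 248 TPM in low-Epcam tumors and 45.0 to 298 TPM in high-Epcam tumors, where all but the Cbfb(homo) tumor were at most 109 TPM. The sum of 8 macrophage markers was 1251 to 7240 TPM in low-Epcam tumors and 844 to 3700 TPM in high-Epcam tumors, and that of 6 pericyte markers 63.7 to 288 TPM and 29.6 to 166 TPM, each with no marker at 0. The sum of 7 hair and squamous markers was 2.53 to 45.0 TPM in low-Epcam tumors and 16.02 to 2896 TPM in high-Epcam tumors, with Krt25, Krt27, Krt71, Krt35 and Krt1 at 0 in at least 1 tumor. The sum of 6 neutrophil markers was 48.0 to 1147 TPM in low-Epcam tumors and 284 to 10350.5 TPM in high-Epcam tumors. Of these markers, Ly6g was at 0 in at least 1 tumor. Tested between the low-Epcam and high-Epcam tumors, 7 of 8 fibroblast and 7 of 8 endothelial markers were higher. So were 4 of 8 macrophage, 4 of 6 pericyte, 2 of 5 erythroid, 1 of 7 adipocyte and 1 of 4 neural markers. Lower were 1 pericyte, 9 of 9 epithelial, 7 of 7 hair and squamous and 2 of 6 neutrophil markers. Of 10 skeletal muscle markers 0 passed in edgeR. Of all genes, 20.8% were higher and 20.4% lower. In RNA of whole tumors, fewer cells of a type and less RNA per cell cannot be told apart. The part of these cells in the results on Epcam was not tested.

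Of the 2 member transporters, Slc2a1, the widespread glucose transporter GLUT1, held nearly all the RNA. It made up 94.7% to 99.7% of the summed TPM of Slc2a1 and the high-affinity transporter Slc2a3. Other transporters are not in this share: Slc2a8 ran from 5.32 to 13.35 TPM, and Slc2a4 reached 15.7 TPM in high-Epcam tumors. Slc2a1 stood at 84.9, 575, 608, 454 and 58.8 TPM in low-Epcam tumors, and at 67.9 to 454 TPM with a median of 121 in high-Epcam tumors. The low-Epcam tumors thus held both the highest and the lowest values. Slc2a3 stood at 2.14, 3.94, 4.27, 5.05 and 3.28 TPM in low-Epcam tumors and at 0.49 to 3.29 TPM with a median of 1.06 in high-Epcam tumors. Only the Cbfb(homo) and 1 Cbfb(het) tumor of the high-Epcam ones, at 3.29 and 2.2 TPM, reached the range of the low-Epcam tumors. Over the 18 tumors Slc2a3 changed by -0.33 ± 0.09 log2 per log2 unit of Epcam (SE, adjusted p 0.00766), in edgeR's quasi-likelihood test with Benjamini-Hochberg adjustment over all genes, which gives all adjusted p below. Slc2a1 had a slope of -0.29 ± 0.12 (adjusted p 0.0593).

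Hexokinase, which traps glucose in the cell, was split between Hk1, the constitutive form, and Hk2, the form known as insulin-responsive and HIF-induced. Hk1 ran from 33.8 to 109 TPM and made up over 50% of the pair in 13 tumors. Hk2 ran from 15.4 TPM in Cbfb(het) 4 to 144 TPM in Cbfb(het) 1 and led in 5 tumors. Its share was 37.3%, 60.5%, 61.9%, 56.9% and 25.7% in low-Epcam tumors, and 16.8% to 67.2% with a median of 42.5% in high-Epcam tumors, so the groups overlapped throughout. The highest share belonged to Cbfb(wt) 1, a tumor with high Epcam. Neither gene passed the test on Epcam (slope 0.00 ± 0.04 for Hk1 and -0.20 ± 0.10 for Hk2, adjusted p 0.98 and 0.112).

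Phosphofructokinase, the committed step, was led by the liver-type subunit Pfkl in most tumors, with a median of 62.6% of the TPM of the 3 subunits. Pfkl stood at 90.4, 98.5, 103, 145 and 130 TPM in low-Epcam tumors and at 96.4 to 251 TPM with a median of 170 in high-Epcam tumors. It rose by 0.22 ± 0.05 log2 per unit of Epcam (adjusted p 0.00126), although the 2 ranges overlapped. The platelet-type subunit Pfkp made up over 50% in 4 tumors, Cbfb(het) 10 and 14, the Cbfb(homo) tumor and Cbfb(wt) 1, and had its highest level, 240 TPM, in Cbfb(wt) 1. The muscle-type subunit Pfkm stood at 47.4, 28.7, 27.3, 35.4 and 37.8 TPM in low-Epcam tumors and at 8.46 to 54.1 TPM with a median of 13.6 in high-Epcam tumors. Its highest value was that of Cbfb(het) 5, the tumor with the highest sum of 10 skeletal muscle markers (5066 TPM, against a median of 16.7 TPM over all tumors). The part of muscle in Pfkm was not tested. That call of Pfkm (slope -0.17 ± 0.06, adjusted p 0.0354) was lost when any 1 of 9 tumors was left out, among them Cbfb(wt) 2 and Cbfb(het) 10, and the slope was 0.20 in the high-Epcam tumors alone. Both bifunctional enzymes that set the activator of phosphofructokinase were present, with Pfkfb3 above Pfkfb4 in every tumor (52.2% to 93.6% of the pair). Pfkfb3 stood at 97.9 and 99.2 TPM in Cbfb(het) 10 and 14 and at 9.96 to 48.7 TPM in the other 16 tumors. Its slope on Epcam of -0.22 ± 0.07 (adjusted p 0.0222) was 0.045 without these 2 tumors and -0.35 without Cbfb(wt) 2.

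**Figure D2:**
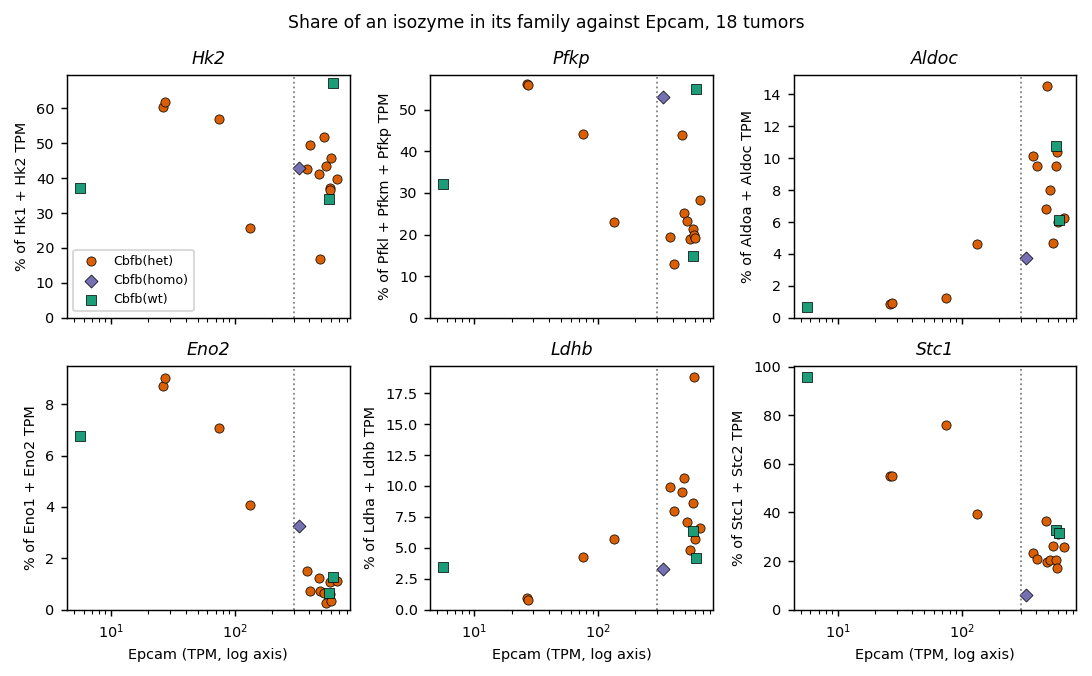
Share of 6 isozymes in the summed TPM of their family (vertical axis, percent) against Epcam (horizontal axis, TPM on a log scale), 1 point per tumor, by Cbfb genotype. The dotted line stands at 300 TPM of Epcam. The shares of Eno2 and Stc1 left of the line lie above all those at its right, Aldoc and Ldhb tend to lie lower at the left, and Hk2 and Pfkp overlap.

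Aldolase, which splits the 6-carbon sugar, was nearly all Aldoa, and the small share of Aldoc followed Epcam. Aldoc, the brain-type aldolase, stood at 5.49, 11.4, 12.3, 22.7 and 39.1 TPM in low-Epcam tumors, and at 68.1 to 159 TPM with a median of 105 in high-Epcam tumors. The groups did not overlap. It rose by 0.70 ± 0.05 log2 per unit of Epcam (adjusted p 5.47e-08), and by 0.69 ± 0.07 without Cbfb(het) 10 and 14 (adjusted p 7.93e-06). Among the 13 high-Epcam tumors the slope was 0.99 ± 0.40 and did not pass (adjusted p 0.183). Its share of the pair was 0.646% to 4.65% in low-Epcam tumors and 3.75% to 14.5% in high-Epcam tumors. Aldoa itself ran from 802 to 1830.2 TPM and did not pass (slope 0.06 ± 0.05, adjusted p 0.338). Aldoc (ENSMUSG00000017390.15) lies on the plus strand of chromosome 11, 78322968 to 78327781 in GRCm38.

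Enolase held more Eno2 where Epcam was low. Eno2, the form known from neurons, stood at 52.1, 101, 110.1, 97.1 and 36.9 TPM in low-Epcam tumors, and at 2.68 to 44.6 TPM with a median of 5.52 in high-Epcam tumors. The value of 44.6 TPM was that of the Cbfb(homo) tumor, and the next high-Epcam tumor, Cbfb(wt) 1, stood at 12.1 TPM. Eno2 changed by -0.78 ± 0.12 log2 per unit of Epcam (adjusted p 8.99e-05), and by -0.75 ± 0.16 without Cbfb(het) 10 and 14 (adjusted p 0.00269). Its share of Eno1 and Eno2 was 4.09% to 9.04% in low-Epcam tumors and 0.269% to 3.26% in high-Epcam tumors, without overlap. The summed level of 5 neural markers was 14.5 to 198 TPM in low-Epcam tumors and 1.3 to 44.2 TPM in high-Epcam tumors, with Snap25 and Elavl4 at 0 in at least 1 tumor, and its part in Eno2 was not tested. Eno1, the widespread enolase, had a slope of -0.03 ± 0.05 (adjusted p 0.651). Its level is uncertain, because the near-identical retrogene Eno1b took a median of 25.4% of the reads given to both (16.7% to 31.2% in 17 tumors, 1.97% in the Cbfb(homo) tumor). With Eno1b added to the family, the share of Eno2 was 3.03% to 7.38% in low-Epcam tumors and 0.191% to 3.19% in high-Epcam tumors, and 1 overlap thereby appeared at the edge. Eno2 (ENSMUSG00000004267.16) lies on the minus strand of chromosome 6, 124760053 to 124769673.

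Lactate dehydrogenase was mostly Ldha, the form that favours lactate, with Ldhb, the heart-type form, lower where Epcam was low. Ldhb stood at 35.7, 16.1, 13.3, 60.9 and 44.2 TPM in low-Epcam tumors, and at 50.9 to 208 TPM with a median of 99.2 in high-Epcam tumors. Only the Cbfb(homo) tumor, at 50.9 TPM, lay inside the range of the low-Epcam tumors. Ldhb rose by 0.41 ± 0.08 log2 per unit of Epcam (adjusted p 0.000963), and by 0.66 ± 0.10 without Cbfb(wt) 2 (adjusted p 7.04e-05). Its share of the pair was highest in Cbfb(het) 5, at 18.8%. Ldha ran from 731 to 1753 TPM, with a slope of 0.05 ± 0.05 (adjusted p 0.487). Pgam1, phosphoglycerate mutase, passed on Epcam as well (slope -0.18 ± 0.05, adjusted p 0.00852). It stood at 674, 1222, 1168, 858 and 579 TPM in low-Epcam tumors and at 238 to 750 TPM with a median of 455 in high-Epcam tumors. Gpi1, Tpi1, Gapdh, Pgk1 and Pkm, single enzymes of the pathway, had slopes between -0.10 and -0.03 on Epcam, with adjusted p of 0.113 to 0.645.

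Slc16a3, the lactate exporter MCT4, was higher where Epcam was low. It stood at 181, 269, 285, 185 and 129 TPM in low-Epcam tumors and at 21.3 to 219 TPM with a median of 79.5 in high-Epcam tumors. The ranges overlapped through the Cbfb(homo) tumor (219 TPM) and Cbfb(wt) 1 (175 TPM). The slope was -0.26 ± 0.08 (adjusted p 0.0157), and the call was lost without Cbfb(het) 10 or without Cbfb(het) 14. Pdk1, the mitochondrial kinase that inhibits pyruvate dehydrogenase, stood at 118 and 109 TPM in Cbfb(het) 10 and 14 and at 9.15 to 70.9 TPM in the other 16 tumors (slope -0.11 ± 0.08, adjusted p 0.289).

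Of the hypoxia members, P4ha1, P4ha2 and Stc1 followed Epcam. P4ha1, a catalytic subunit of the collagen prolyl hydroxylase, stood at 165, 138, 137, 137 and 185 TPM in low-Epcam tumors. In high-Epcam tumors it stood at 14.9 to 88.3 TPM with a median of 28.8, and the groups did not overlap. It changed by -0.46 ± 0.06 log2 per unit of Epcam (adjusted p 1.19e-05). P4ha2, the second such subunit, stood at 45.5, 198, 203, 90.2 and 127 TPM in low-Epcam tumors and at 20.2 to 101 TPM with a median of 32.8 in high-Epcam tumors, where the top value was that of the Cbfb(homo) tumor. Its slope was -0.38 ± 0.08 (adjusted p 0.00144), and -0.17 without Cbfb(het) 10 and 14, where it did not pass (adjusted p 0.205). Both enzymes serve collagen assembly, and fibroblast markers moved the same way, as given above.

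Stc1, stanniocalcin 1, a secreted hormone of calcium and phosphate balance, had the widest range of any member, 6.64 on the log2 CPM scale. It stood at 297, 9.95, 9.49, 42.5 and 14.3 TPM in low-Epcam tumors, and at 1.75 to 7.18 TPM with a median of 3.89 in high-Epcam tumors. The groups did not overlap, and Cbfb(wt) 2 stood far above all others. The slope was -0.77 ± 0.07 (adjusted p 4.46e-07). Leaving that tumor out gave -0.57 ± 0.12 (adjusted p 0.00108). Its relative Stc2 had no such pattern (slope 0.08 ± 0.13, adjusted p 0.636) and stood at 86.1 TPM in the Cbfb(homo) tumor, against 5.12 to 29.5 TPM in the other 17. Stc1 made up 39.4% to 95.7% of the summed TPM of both in low-Epcam tumors and 6.03% to 36.3% in high-Epcam tumors, without overlap. Stc1 (ENSMUSG00000014813.9) lies on the plus strand of chromosome 14, 69029238 to 69041804.

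The slopes of the oxygen-sensing members and the remaining HIF targets on Epcam did not pass in the 18 tumors. In the contrast of low-Epcam with high-Epcam tumors, Egln3 passed as lower (-1.22 ± 0.47 log2, adjusted p 0.0468 in edgeR), as did 20.4% of all genes. Hif1a, the widespread HIF alpha subunit, made up over 50% of the TPM of Hif1a and Epas1 in all 18 tumors (71.9% to 91.7%), while Epas1, the HIF2 alpha subunit known from endothelium, ran from 6.90 to 28.7 TPM. Hif1a stood at 95.3, 192, 183, 123 and 71.1 TPM in low-Epcam tumors and at 32.2 to 250.3 TPM with a median of 54.7 in high-Epcam tumors (slope -0.21 ± 0.08, adjusted p 0.0504). Egln3 was the larger part of the pair Egln1 and Egln3 in most tumors (median 78.9%), from 25.1 TPM in Cbfb(het) 12 to 386 TPM in the Cbfb(homo) tumor. Its share was 39.2% to 68.3% in low-Epcam tumors and 60.1% to 84.7% in high-Epcam tumors. Of the carbonic anhydrases, which regulate pH at the cell surface, Car12 exceeded Car9 in 17 tumors. Car12 stood at 7.35, 269, 262, 11.2 and 39.9 TPM in low-Epcam tumors, both below and above the 28.4 to 180 TPM of high-Epcam tumors.

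Counted over the 39 members, 12 passed on Epcam in the 18 tumors, 3 with a positive and 9 with a negative slope. Of all 18572 genes tested, 38.8% passed, 19.2% positive and 19.6% negative, so the share of members (12 of 39) was no larger than that of all genes. The median slope of the members was -0.11, against 0.00 over all genes. Without Cbfb(wt) 2, the tumor with the lowest Epcam, 19 members and 40.3% of genes passed, and those that joined the negative side included Slc2a1, Hk2, Hif1a, Car9, Vegfa and Adm. Without Cbfb(het) 10 and 14, 7 members and 29.0% of genes passed: Pfkl, Aldoc, Ldhb and Car12 (0.54 ± 0.14, against -0.15 in 18 tumors) were positive, and Eno2, P4ha1 and Stc1 negative. The slopes of Pgam1 and Slc16a3 were then -0.07 and -0.16 and did not pass (adjusted p 0.326 and 0.23). As a contrast of the 5 low-Epcam with the 13 high-Epcam tumors, 13 members passed, 9 higher and 4 lower in low-Epcam tumors, among 41.3% of genes (20.8% higher and 20.4% lower). Only P4ha1 and Stc1 (higher) and Aldoc (lower) did not overlap in log2 CPM, 3 of 39 members, against 10.1% of all genes.

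Within the 13 high-Epcam tumors 4 members passed, all negative, among 2.34% of genes (1.43% negative). They were Eno2 (-2.50 ± 0.48, adjusted p 0.0249), Hif1a (-1.91 ± 0.26, 0.00726), P4ha1 (-1.11 ± 0.27, 0.0474) and Epas1 (-0.90 ± 0.22, 0.0455). Without the Cbfb(homo) tumor, which had the lowest Epcam of the 13, 0 members passed in edgeR. In that fit 3 members had an unadjusted p under 0.05, against 2464 of 18476 genes. Of all genes 0.00541% passed, the single gene Tnn, named after its value was seen. The slopes of Hif1a (-1.63 ± 0.49, adjusted p 0.292) and Epas1 (-1.20 ± 0.37, adjusted p 0.292) were then of like size. Those of Eno2 (-1.14 ± 1.00) and P4ha1 (-0.23 ± 0.44) were much smaller. By log2 CPM, Epcam was 8.78 in Cbfb(het) 11 and only 9.10 to 9.51 in the rest of these 12 tumors. Cbfb(het) 11 also had the most Hif1a (8.52) and Epas1 (6.52) of the 12. Whether the slopes of Hif1a and Epas1 rest on that tumor was not tested.

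**Figure D3:**
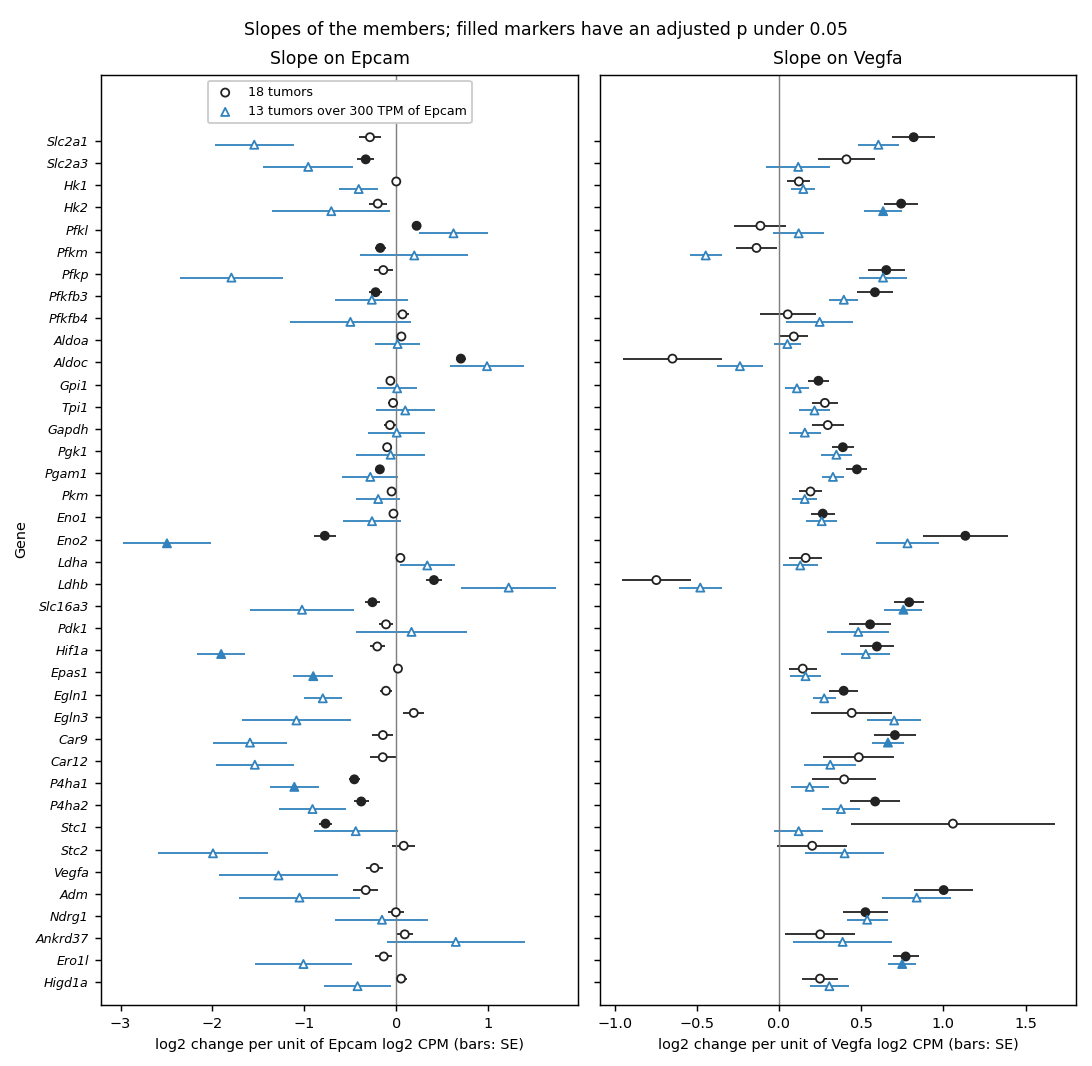
Slope of each member on Epcam (left) and on Vegfa (right), as the log2 change per unit of log2 CPM of that gene, with its standard error, in all 18 tumors (circles) and in the 13 tumors over 300 TPM of Epcam (triangles). Filled markers have an adjusted p under 0.05. On Epcam 12 members are filled at both sides of 0, and on Vegfa 18 are filled, all right of 0.

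Members of the HIF response varied together with Vegfa. Vegfa (ENSMUSG00000023951.17), on the minus strand of chromosome 17 from 46016993 to 46032369, stood at 188, 360.4, 365, 254 and 88.3 TPM in low-Epcam tumors, and at 20.7 to 304 TPM with a median of 106 in high-Epcam tumors. The lowest value was that of Cbfb(het) 5, and the Cbfb(homo) tumor and Cbfb(wt) 1 (279 TPM) led the high-Epcam tumors. Of the 38 other members, 18 rose with Vegfa over the 18 tumors and 0 fell, while 4.24% of 18572 genes passed, 3.14% with a positive slope. A further 16 members had a positive slope that did not pass, and the median over members was 0.39, against a value near 0 over all genes. Over all genes 49.7% of slopes were positive. Vegfa was taken as the measure after its slope was seen to call more members than that of Egln3, so this count is a description.

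Ero1l, the oxidase of the endoplasmic reticulum that serves protein folding, followed Vegfa most closely. It stood at 106, 329, 324, 281 and 53.6 TPM in low-Epcam tumors and at 32.5 to 271 TPM with a median of 101 in high-Epcam tumors. It rose by 0.77 ± 0.08 log2 per log2 unit of Vegfa (adjusted p 0.000231). The slope was 0.75 ± 0.08 among the high-Epcam tumors (adjusted p 0.01) and 0.78 ± 0.10 without Cbfb(het) 10 and 14 (adjusted p 0.00871). Both of these fits keep Cbfb(het) 5, whose Vegfa was 4.79 log2 CPM, against at least 6.44 in every other tumor. By log2 CPM that tumor was also the lowest of all 18 in Ero1l, Slc16a3, Hk2 and Pgam1. Neither fit was repeated without it. With each of the 18 tumors left out in turn from the full fit, the slope of Ero1l ran from 0.74 to 0.82.

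Slc16a3, Hk2, Slc2a1 and Pgam1 came next, covering uptake, trapping, a late step of the pathway and lactate export. Slc16a3 rose by 0.79 ± 0.09 (adjusted p 0.000371), and Hk2 by 0.74 ± 0.10 (adjusted p 0.0015). Slc2a1 rose by 0.82 ± 0.13 (adjusted p 0.00409), and Pgam1 by 0.47 ± 0.06 (adjusted p 0.00141). Hk2 and Slc16a3 also passed within the high-Epcam tumors, at 0.63 ± 0.12 and 0.76 ± 0.12 (adjusted p 0.0455 and 0.0222). Their promoter windows and that of Pgam1, printed above, hold ACGTG. So do those of Ero1l, Slc2a1, Pfkfb3, Pgk1, Car9, Hif1a, Egln1 and P4ha2, which also rose with Vegfa. Those of Pfkp, Pdk1, Gpi1, Eno1, Eno2 and Adm, which rose too, hold ACGTG 0 times. Of these, Pfkp holds GCGTG 4 times and Pdk1, Eno1 and Adm 2 times each, while Gpi1 and Eno2 hold neither word. Of the members with negative slopes, Pfkm and Aldoc hold ACGTG, and Pfkl and Ldhb hold only GCGTG, 1 time each. Whether either word goes with the slope was not tested.

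Of the other glycolysis members, Pfkp (0.65 ± 0.11), Pfkfb3 (0.58 ± 0.11), Pgk1 (0.39 ± 0.07), Pdk1 (0.55 ± 0.13), Gpi1 (0.24 ± 0.06), Eno1 (0.27 ± 0.07) and Eno2 (1.13 ± 0.26) rose with Vegfa, with adjusted p of 0.0067 to 0.0442. Of the hypoxia members, Adm, the vasodilator adrenomedullin, rose by 1.00 ± 0.18 (adjusted p 0.00791). Car9 (0.71 ± 0.13), Hif1a (0.60 ± 0.10), Egln1 (0.39 ± 0.09), P4ha2 (0.58 ± 0.15) and Ndrg1 (0.53 ± 0.14), a stress-induced gene, rose too, with adjusted p of 0.00715 to 0.0406. Adm stood at 168 and 178 TPM in Cbfb(het) 10 and 14, at 96.2 TPM in the Cbfb(homo) tumor, and at 5.13 to 43.1 TPM in the other 15 tumors. The 4 negative slopes, Ldhb (-0.75 ± 0.21), Aldoc (-0.65 ± 0.30), Pfkm (-0.14 ± 0.12) and Pfkl (-0.11 ± 0.16), did not pass (adjusted p 0.0525 to 0.685).

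The count on Vegfa was smaller without Cbfb(het) 10 and 14, while most slopes were of like size. Leaving out Cbfb(het) 10, or Cbfb(het) 14, left 11 members, and without both 4 members passed, Ero1l, Slc16a3, Hk2 and Pgam1, among 0.137% of genes (0.0684% with a positive slope). Without both, 35 of 38 slopes were still positive and 23 members had an unadjusted p under 0.05, with a median slope of 0.28. Over all genes 49.4% of slopes were positive, and 2122 of 19013 genes had such a p. Slopes such as those of Slc2a1 (0.69 ± 0.15), Pfkp (0.63 ± 0.13), Car9 (0.61 ± 0.16) and Hif1a (0.52 ± 0.13) were near those of 18 tumors, whereas Pfkfb3 (0.29 ± 0.10), Egln1 (0.22 ± 0.09) and P4ha2 (0.27 ± 0.16) were over 1.5 times smaller. Within the 13 high-Epcam tumors 4 members passed, Ero1l, Slc16a3, Hk2 and Car9, among 0.252% of genes (0.113% positive). With Epcam as a covariate 11 members passed among 0.900% of genes (0.510% positive), 10 positive and Pfkm negative (-0.41 ± 0.09, adjusted p 0.036). Calls of Eno1, Gpi1, Ndrg1, P4ha2, Pdk1, Egln1 or Eno2 were lost in 2 to 13 of the 18 fits that left out 1 tumor. Of the cell type markers, 1 of 8 endothelial and 1 of 6 pericyte markers rose with Vegfa, and 2 of 10 skeletal muscle and 1 of 7 adipocyte markers fell. Of 10 epithelial, 8 fibroblast, 8 macrophage and 6 neutrophil markers 0 passed. An unadjusted p under 0.05 was found for 6 of 10 skeletal muscle, 5 of 7 adipocyte, 3 of 8 endothelial and 3 of 6 pericyte markers. It was found for 4303 of all 18572 genes. The part of these cells in the results on Vegfa was not tested.

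**Figure D4:**
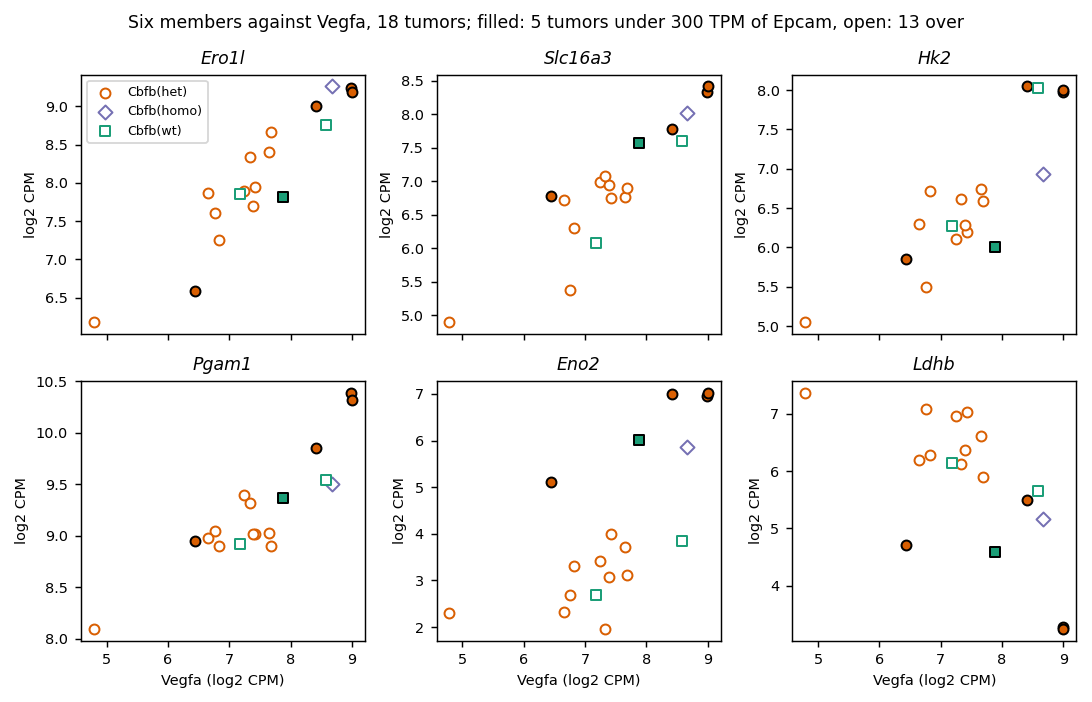
Level of 6 members (vertical axis, log2 CPM) against Vegfa (horizontal axis, log2 CPM), 1 point per tumor by Cbfb genotype, filled for the 5 tumors under 300 TPM of Epcam and open for the 13 over it. Ero1l, Slc16a3, Hk2 and Pgam1 climb with Vegfa in both kinds of tumor, Eno2 lies higher in the filled points at a given Vegfa, and Ldhb runs downward.

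Egln3 is a HIF target that also restrains HIF, and its level was used in the same way. On it 3 of 38 members passed, 1 positive and 2 negative, among 5.85% of 18572 genes (3.06% positive and 2.78% negative). They were Higd1a, a mitochondrial protein induced by low oxygen (0.40 ± 0.07, adjusted p 0.00384), Pfkm (-0.44 ± 0.10, 0.0188) and Stc1 (-1.52 ± 0.42, 0.0398). The call of Stc1 was lost in 11 of the 18 fits that left out 1 tumor, and its slope was -0.63 without Cbfb(wt) 2. A positive slope was found for 29 of 38 members, against 50.5% of all genes. Macrophage markers (3 of 8 lower) and neutrophil markers (2 of 6 higher) moved with Egln3 as well, and their part was not tested. Within the high-Epcam tumors Slc16a3 (0.90 ± 0.11, adjusted p 0.0138), Hk2 (0.72 ± 0.14, 0.0399) and Egln1 (0.35 ± 0.06, 0.0341) rose with Egln3, among 0.583% of genes (0.511% positive). With Epcam as a covariate 7 members passed among 3.89% of genes: Pgk1, Slc16a3, Hif1a, Egln1, Vegfa and Higd1a were positive, and Pfkm was negative. On Car9, taken in place of Egln3, 10 members passed, all positive, among 1.87% of genes (1.34% positive). On Ankrd37 0 members passed in edgeR among 0.0166% of genes, which are Gbp8, Tom1 and Il1f10, named after their values were seen.

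No member passed between genotypes. Of 18494 genes tested in 14 Cbfb(het) against 3 Cbfb(wt) tumors, 0 passed (0.00%) and 624 had an unadjusted p under 0.05, among them 1 member, Stc1. DESeq2, limma-voom and limma on log2(TPM + 1) also called 0 genes. The median difference of the members was 0.23 log2, with 28 of 39 positive, against a median of 0.03 and 53.2% positive over all genes. The 5 members with the smallest p are described next, each with an adjusted p of 0.999.

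Stc1 stood at 1.75 to 42.5 TPM with a median of 4.75 in Cbfb(het) tumors, and at 6.50, 297 and 3.89 TPM in Cbfb(wt) 1, 2 and 3. The difference of -3.49 ± 0.83 log2 rested on Cbfb(wt) 2: without it, the difference was 0.76. Slc2a3 stood at 0.49 to 5.05 TPM with a median of 1.45 in Cbfb(het) tumors and at 1.06, 2.14 and 0.53 TPM in Cbfb(wt) tumors (difference 1.06 ± 0.62, and 1.66 without Cbfb(wt) 2). Adm stood at 5.13 to 178 TPM with a median of 29.2 in Cbfb(het) tumors and at 38.7, 10.5 and 13.2 TPM in Cbfb(wt) tumors (difference 1.35 ± 0.87, and 2.12 without Cbfb(wt) 1). The Cbfb(wt) values of Slc2a3 and Adm lay within the range of the Cbfb(het) values, as did those of Stc1 in Cbfb(wt) 1 and 3, while Cbfb(wt) 2 stood far above it. P4ha2 and Higd1a differed by 0.96 ± 0.65 and 0.39 ± 0.31 log2, with 20.2 to 203 and 77.7 to 201 TPM in Cbfb(het) tumors against 22.8 to 50.2 and 82.0 to 184 TPM in Cbfb(wt) tumors. The difference of Higd1a was 0.76 without Cbfb(wt) 1 and 0.17 without Cbfb(wt) 2.

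**Figure D5:**
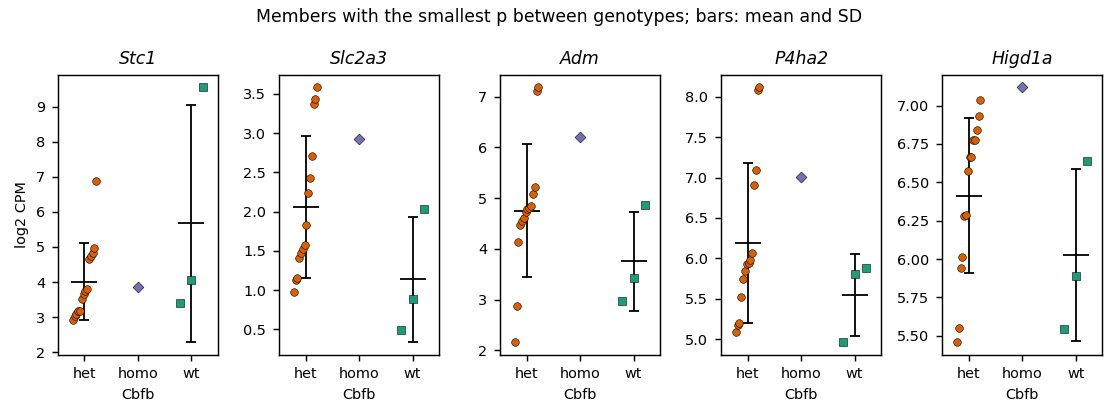
Level (log2 CPM) of the 5 members with the smallest p between genotypes, 1 point per tumor in 14 Cbfb(het), 1 Cbfb(homo) and 3 Cbfb(wt) tumors, with mean and SD for the groups with replicates. The groups overlap in each panel, but 1 Cbfb(wt) tumor stands far above the rest for Stc1.

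The single Cbfb(homo) tumor, which has no replicate and entered no test of genotype, was the highest of all 18 in 8 members by log2 CPM. These were Eno1, the alpha subunits Hif1a (250.3 TPM) and Epas1 (27.6 TPM), Egln3 (386 TPM), Car9 (81.5 TPM), Stc2 (86.1 TPM), Ero1l and Higd1a (246 TPM). It was the lowest in 0 members. Its lead in Eno1 was small, at 10.616 log2 CPM against 10.614 in Cbfb(het) 1. Eno1b took 1.97% of the reads given to both genes in this tumor and at least 16.7% in every other. The top rank of the Cbfb(homo) tumor in Eno1 therefore rests on how reads were split between Eno1 and Eno1b. In TPM, Epas1 was higher in Cbfb(het) 11 (28.7 TPM), and Ero1l (271 TPM in the Cbfb(homo) tumor) was higher in 3 Cbfb(het) tumors.

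Other single tumors stood out in many members. By log2 CPM, Cbfb(het) 5 was the lowest in 14 members, among them Hk2, Pgk1, Pgam1, Slc16a3, Hif1a, Vegfa and Adm, and the highest in Pfkm and Ldhb, beside its skeletal muscle markers. Cbfb(het) 12 was the lowest in 10, among them Slc2a1, Gapdh, Ldha, Egln1 and Egln3. Cbfb(het) 1 was the highest in 7, among them Hk1, Hk2, Aldoa, Gapdh and Pkm, and Cbfb(het) 10 and 14 in 6 and 8. Gapdh, often taken as an even control, ran from 982 to 3714 TPM. Summed over the 23 glycolysis members, the level was 7999 to 15676 TPM in low-Epcam tumors and 6798 to 12956 TPM in high-Epcam tumors. The 16 hypoxia members summed to 944 to 2887 TPM in low-Epcam tumors and to 510 to 2733 TPM in high-Epcam tumors, so both sums overlapped.

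Other genes of the same pathways, listed apart from the members, were read from the same fits. Of 41 other glycolysis and glucose metabolism genes, 17 passed on Epcam, 12 positive and 5 negative, near the 38.8% of all genes. The 4 with the smallest p were Taldo1 of the pentose phosphate pathway (0.34 ± 0.05, adjusted p 3.55e-05), the D-lactate dehydrogenase Ldhd (0.55 ± 0.08, 4.8e-05), the pyruvate dehydrogenase kinase Pdk3 (-0.26 ± 0.04, 0.000252) and the gluconeogenic enzyme Fbp1 (1.24 ± 0.23, 0.000406). On Vegfa 3 of the 41 passed, against 4.24% of all genes, Pgm1 (0.39 ± 0.07, adjusted p 0.00906), Gpd2 (0.42 ± 0.09, 0.0179) and, downward, Pdk2 (-0.54 ± 0.13, 0.033). On Egln3 3 passed, against 5.85% of all genes, muscle-type enolase Eno3 (-1.22 ± 0.26, adjusted p 0.0144), Gapdhs (1.39 ± 0.33, 0.0206) and the monocarboxylate transporter Slc16a7 (-0.48 ± 0.12, 0.0291). Of the further isozymes, Slc2a2, Ldhc and Hkdc1 did not exceed 0.16 TPM in any tumor, and Hk3, the myeloid hexokinase, ran from 2.43 to 11.8 TPM. Others were higher: Egln2 ran from 36.1 to 65.5 TPM, and P4ha3, Pfkfb2 and Slc2a4 reached 40.7, 22.0 and 15.7 TPM. Eno3 reached 190.2 TPM in the high-Epcam tumors, which hold Cbfb(het) 5, the tumor with the highest sum of skeletal muscle markers. The part of muscle in Eno3 was not tested.

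Other HIF targets rose with Vegfa too. Of 51 tested, 16 passed on Vegfa, 15 positive and 1 negative, against 4.24% of all genes. Those with the smallest p were the nitric oxide synthase Nos2 (0.99 ± 0.15, adjusted p 0.00265), the mitophagy receptor Bnip3 (0.71 ± 0.11, 0.00302), Fam162a (0.74 ± 0.12, 0.00409) and the repressor Bhlhe40 (0.45 ± 0.08, 0.00788). Without Cbfb(het) 10 and 14, 0 of the 51 passed in edgeR, with 23 at an unadjusted p under 0.05, against 2122 of 19013 genes. On Epcam 22 of the 51 passed, 7 positive and 15 negative, near the 38.8% of all genes, among them Wsb1 (-0.23 ± 0.03, adjusted p 7.26e-05), the lysyl hydroxylase Plod1 (-0.51 ± 0.08, 8.61e-05) and the lysyl oxidase Loxl2 (-0.69 ± 0.13, 0.00053). On Egln3 5 passed, 4 positive and 1 negative, against 5.85% of all genes, among them the adenylate kinase Ak4 (0.48 ± 0.09, adjusted p 0.0055), Stbd1 (0.36 ± 0.09, 0.025), Insig2 (0.28 ± 0.08, 0.0427) and, downward, Ppfia4 (-0.34 ± 0.10, 0.0458).

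Of 13 further genes of oxygen sensing and HIF control, 1 passed on Epcam, Arnt, the constant partner of the HIF alpha subunits (-0.13 ± 0.03, adjusted p 0.00227). In edgeR 0 of 13 passed on Vegfa and 0 on Egln3, with 1 and 2 at an unadjusted p under 0.05. Of all 18572 genes, 4303 and 3949 had such a p. Between genotypes 0 of the genes in the 3 further lists passed in edgeR. An unadjusted p under 0.05 was found for 624 of 18494 genes, and for 2 of 40, 1 of 51 and 2 of 13 in these lists. The smallest p belonged to Fbp2 and Pgam2 (2.16 ± 0.93 and 6.26 ± 2.87 log2), Csrp2 (1.32 ± 0.56) and Os9 (0.30 ± 0.13), each with an adjusted p of 0.999.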

How the data were processed

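The authors deposited 1 gene table per tumor. Its expected counts are the estimates by RSEM of the reads of a gene, not normalized, and the deposited TPM values are scaled by length and to 1 total per tumor. RNA came from freshly isolated tumors by Trizol and libraries from the TruSeq Stranded mRNA kit, per the labels' protocols. Tools named in the submitters' processing notes are RSEM 1.3.1 and STAR 2.7.0f, with build mm10. The strand setting is not given in the sources used here. The deposited FPKM column was not used. All 55450 gene IDs matched GENCODE M21 of GRCm38, the source of positions.

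Expected counts that were not whole, 6.20% to 7.19% per tumor, were rounded for count models. edgeR 4.0.16 in R 4.3.3 was used with filterByExpr, TMM factors and the robust quasi-likelihood F-test, Benjamini-Hochberg adjusted over all genes tested (threshold 0.05). The fits were Cbfb(het) against Cbfb(wt) (17 tumors), and slopes on log2 CPM (TMM, prior count 2) of Epcam, Egln3 and Vegfa (18 tumors, the covariate gene left out of the test). All 39 members passed the filter. The labels give neither the mouse of each tumor nor a batch. Alternatives were DESeq2 1.42.0, limma 3.58.1 (voom, or trend on log2(TPM + 1)), other scaling, no filter, other covariates and each tumor left out. The fits were tested on simulated data. Named were all isozyme family members, members past a threshold, the 5 smallest p between genotypes, and up to 4 of each further list and fit; levels of single tumors were picked after they were seen. The members, lists, tests and the Epcam split were chosen with earlier results of these data known.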

Additional observations from a re-analysis of the deposited data

How the results depend on the processing

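Between genotypes 0 genes and 0 members passed with each of the 17 tumors left out in turn. Without the filter on low counts, or with all 18 tumors in the fit, 1 gene passed, Tex11, which is no member and was named after its values were seen. The difference of Stc1 ran from -4.06 to 0.76 log2 with a tumor left out, and was 0.76 without Cbfb(wt) 2.

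On Epcam, leaving out 1 tumor gave 6133 to 7452 genes and 9 to 19 members, and the 17 tumors above the largest Epcam gap, which leave out Cbfb(wt) 2, gave 19 members. A contrast across that gap, the 17 tumors minus Cbfb(wt) 2 alone, describes that 1 tumor, assumed to vary like the rest, and not Epcam: 25 genes and 1 member passed, with Slc2a3, P4ha2 and Pfkfb3 at 0.24, 0.70 and 0.81. The 13 tumors over 300 TPM gave 436 genes and 4 members, with Pfkm at 0.20. Without the Cbfb(homo) tumor these became 1 gene and 0 members (Slc2a3 0.21, Pgam1 0.14, P4ha2 0.50, Slc16a3 0.086, Pfkm 0.54). Without Cbfb(het) 10 and 14, 7 members passed, and Pfkfb3 turned to 0.045.

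On Egln3, leaving out 1 tumor gave 240 to 1579 genes and 2 to 4 members. DESeq2 called 2261 genes and 7 members, limma on log2(TPM + 1) 635 genes, and Epcam as a covariate 723 genes and 7 members. In place of Egln3, Ankrd37 called 3 genes and 0 members, Car9 338 genes and 10 members, and Vegfa 18 members, with Stc1 at 1.06. Without Cbfb(het) 10 and 14, 1718 genes and 5 members passed, and the 13 tumors over 300 TPM gave 105 genes.

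On Vegfa, leaving out 1 tumor gave 140 to 1820 genes and 11 to 20 members. DESeq2 called 2432 genes, limma on log2(TPM + 1) 109 genes, the 13 tumors over 300 TPM 47 genes and 4 members, Epcam as a covariate 173 genes and 11 members, and the fit without Cbfb(het) 10 and 14 26 genes and 4 members. The cause of these shifts was not tested. With Egln2 added to the family, the median share of Egln3 was 59.8%, against 78.9%, and the other 21 alternatives for isozyme shares moved by less than the spread between tumors. Among the refits of single members, 867 kept direction and call, 168 kept direction without passing and 12 turned.

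No paired analysis was possible because the numbers of the tumors only name them. At 33210239 counts or more per tumor depth limited only members of a few TPM, such as Slc2a3, while 3 Cbfb(wt) tumors and 1 Cbfb(homo) tumor limit every statement on genotype.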
